A study of Mus musculus with 7 samples.

Results

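The retinoid genes described here are 9 of the 23284 gene symbols measured in papillomas of *Nanog* transgenic mice. They encode a blood carrier of retinol (*Rbp4*), intracellular binding proteins (*Rbp7*, *Crabp1*, *Crabp2*), enzymes that make retinoic acid (*Dhrs9*, *Aldh1a3*), an enzyme that breaks it down (*Cyp26b1*) and nuclear receptors (*Rarg*, *Rxra*). The genes were selected on measured values, with the differences between TG and CTR papillomas already known. Those differences are therefore a description of the 9 genes and no p-value is given for them. RNA-seq was performed on papillomas from 4 CTR and 3 TG mice, each papilloma from a separate mouse. All mice had the C57Bl/6 background and carried *tetO-Nanog*, a cassette placed downstream of *Col1a1* that responds to DOX. All received DOX at 2 mg/ml in the drinking water during skin carcinogenesis, in which DMBA initiates tumors and TPA promotes them. TG mice also carried *K5-rtTA*, in which the bovine keratin 5 promoter drives the transactivator in the basal layer of stratified epithelia, and CTR mice lacked it. Tumors were taken when the protocol ended, or earlier where a mouse reached the humane endpoint, and the age of each mouse was not used here.

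Retinol travels in blood on its carrier, enters cells and is held there by cellular binding proteins. Dehydrogenases oxidize it to retinal and then to retinoic acid, CYP26 enzymes degrade retinoic acid, and RAR and RXR receptors bind paired DNA half-sites and change transcription in response to it. In epidermis, retinoic acid is known to affect keratinocyte growth and terminal differentiation.

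Levels are FPKM, reads scaled both for the length of the transcript and for the size of the library, so that different genes can be set side by side. *Nanog*, which the genotype labels concern, was at 2.70, 2.84, 12.7 and 3.34 FPKM in CTR 1 to 4 and at 36.9, 57.4 and 66.9 FPKM in TG 1 to 3. The groups did not overlap. The intervals that accompany the FPKM values implied 10074859 to 15710562 reads on genes in a papilloma, with CTR 3 and TG 1 the deepest. TG 3 stood apart. Its markers of skeletal muscle summed to 536 FPKM against at most 4.53 elsewhere, its fibroblast markers to 678 against at most 129, and its leukocyte markers to 84.4 against at most 36.4. Keratinocyte markers were abundant in every papilloma, with sums from 7258 FPKM in TG 3 to 18908 FPKM in TG 1. Results are therefore also given without TG 3.

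The sequence before the start of *Rbp7* is shown because this was the only one of the 9 genes whose CTR and TG levels did not overlap. The 250 bases come from RefSeq (GRCm38.p6, chr4:149454969-149455218, minus strand) and run 5′ to 3′ toward the start.

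Rbp7: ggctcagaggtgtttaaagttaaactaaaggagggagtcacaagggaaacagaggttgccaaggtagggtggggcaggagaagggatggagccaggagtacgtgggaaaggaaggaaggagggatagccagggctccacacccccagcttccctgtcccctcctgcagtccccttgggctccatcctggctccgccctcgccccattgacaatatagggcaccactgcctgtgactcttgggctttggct

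This stretch held 3 CpG dinucleotides and 58.4% G and C, where the medians over all 32851 promoters of that length were 6 and 52.4%. Retinoic acid receptors are known to bind direct repeats of a half-site. The half-site was AGGTCA with variation allowed at the first base (A or G) and the third (G or T), and repeats of it spaced by 1, 2 or 5 bases were searched for on both strands. Such a repeat was found in 0 of the 10 promoters listed for 7 of the 9 genes, and in 0.426% of all promoters. *Crabp2* and *Aldh1a3* were not matched. A single half-site of these letters, whether or not in a repeat, was found in 4 of the 10 promoters (40%, against 38.6% of all promoters). The letters TAATGG, found on either strand in 6.57% of all promoters, occurred in 1 of the 10, the second promoter of *Rxra*. These are matches of letters in a short window and do not show binding. Among 57 promoters of other genes of the pathway, 3 (5.26%) held such a repeat. That of *Bco1*, which encodes a carotene-cleaving enzyme, was spaced by 1 base, and that promoter also held TAATGG. Those of *Rarb* and *Cyp26a1*, genes that retinoic acid is known to induce, were spaced by 5 bases, which 0.0883% of all promoters had. The latter windows are shown with the half-sites in capitals. The *Rarb* window lies at chr14:16575507-16575535 on the minus strand, and its repeat begins 53 and ends 37 bases before the start. The *Cyp26a1* window lies at chr19:37697770-37697798 on the plus strand, and its repeat begins 32 and ends 16 bases before the start. This window shows the half-sites as their reverse complement.
Rarb: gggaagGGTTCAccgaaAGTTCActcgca
Cyp26a1: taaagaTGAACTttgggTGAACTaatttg

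Both genes with the repeat spaced by 5 bases were hardly detected. *Rarb*, a receptor gene, lay between 0.0695 and 0.294 FPKM and *Cyp26a1*, which encodes a retinoic acid hydroxylase, between 0.0283 and 0.166 FPKM over the 7 papillomas.

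The 9 genes spanned a wide range of levels. *Crabp2* was the most abundant, with a mean of 277 FPKM over the 7 papillomas, and its lowest papilloma (196 FPKM) was above the highest *Aldh1a3* value (147 FPKM). *Aldh1a3* (mean 47.1 FPKM), *Rarg* (30.0), *Rbp7* (27.3), *Rxra* (20.5) and *Crabp1* (13.9) followed, and the ranges of neighbors in this order overlapped. *Dhrs9* (8.50 FPKM) overlapped with *Crabp1* above it and with *Cyp26b1* (2.93 FPKM) below it. *Rbp4* was last at 0.663 FPKM, and its highest papilloma (1.22 FPKM) was below the lowest *Cyp26b1* value (1.70 FPKM).

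**Figure D1:**
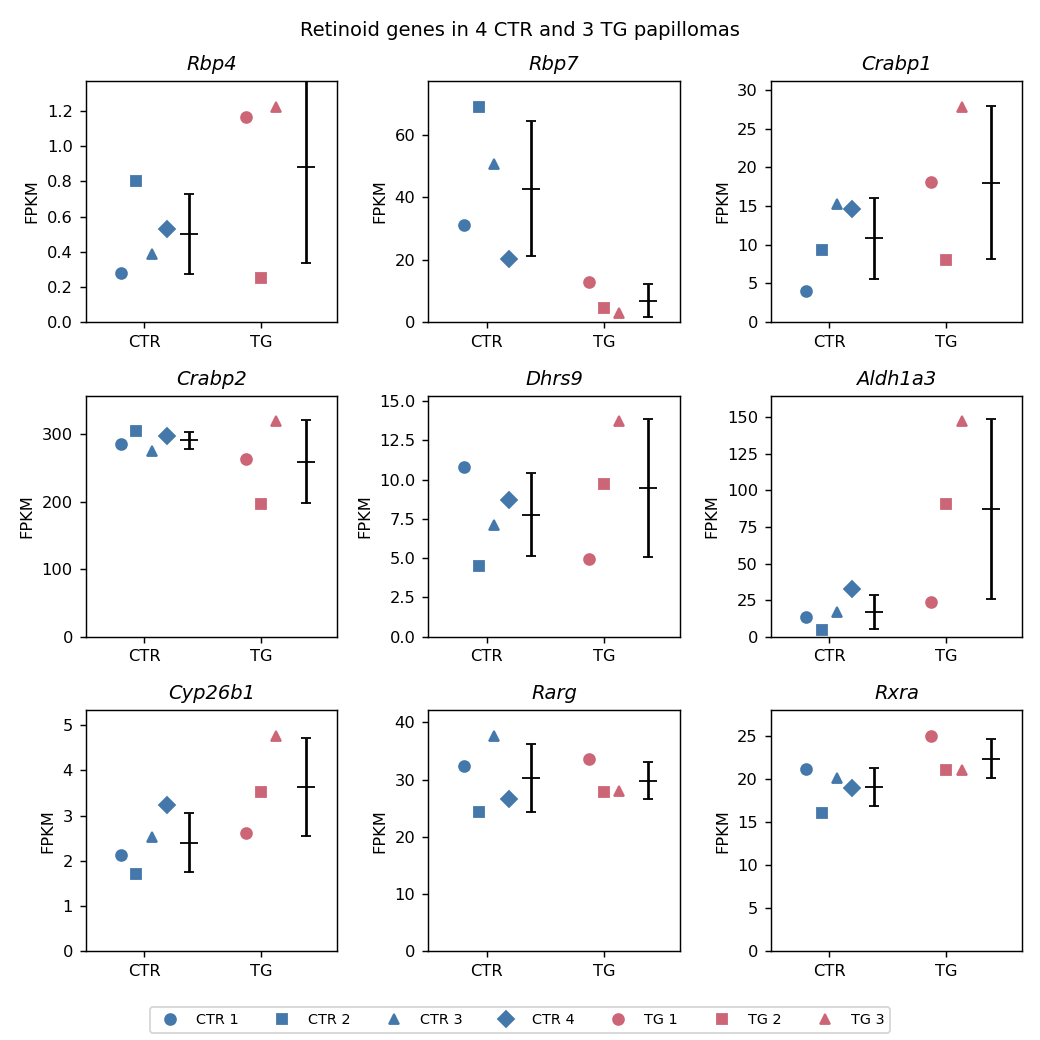
FPKM of the 9 retinoid genes (vertical axes, linear from 0) in the 4 CTR (blue) and 3 TG (red) papillomas, with a separate scale for each gene. Each symbol is 1 papilloma, and the black dash and bar give the group mean and SD. For *Rbp7* all TG papillomas (at most 12.8 FPKM) lie below all CTR papillomas (at least 20.2 FPKM), and for the other 8 genes the groups overlap.

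*Rbp4* (GRCm38, chr19:38116620-38125321) encodes the carrier that takes retinol through the blood. It was at 0.280, 0.804, 0.386 and 0.527 FPKM in CTR 1 to 4 and at 1.17, 0.251 and 1.22 FPKM in TG 1 to 3. TG 1 and TG 3 were the highest papillomas and TG 2 the lowest, so the groups overlapped. These levels rest on an implied 1.85 to 24.6 reads in a papilloma, and the counting intervals of CTR 1 and TG 2 reached 0. The difference of mean log2(FPKM + 0.5) between TG and CTR, called the log2 difference from here on, was 0.40 (standard error 0.35). It was 0.19 without TG 3 and 0.79 without TG 2.

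*Rbp7* (chr4:149449702-149454968) encodes a small cytoplasmic protein that binds retinol, a paralog of *Rbp2*, and is known from adipose tissue. Its level was 31.2, 68.9, 50.7 and 20.2 FPKM in CTR 1 to 4. In TG 1 to 3 it was 12.8, 4.54 and 2.99 FPKM. Every TG papilloma was below every CTR papilloma, and the gap was narrowest between TG 1 and CTR 4. The means were 42.7 ± 21.5 FPKM in CTR (SD, n = 4) and 6.79 ± 5.29 FPKM in TG (SD, n = 3), a ratio of CTR to TG of 6.29. The log2 difference was -2.66 (standard error 0.52). Without TG 3 it was -2.25, and it lay between -3.22 and -2.25 when each papilloma was left out in turn. The values rest on an implied 34.0 reads in TG 3, up to 189 in TG 1, and on 218 to 783 in CTR papillomas. In bulk tissue, fewer cells that express a gene and less of its RNA per cell cannot be told apart.

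Markers of adipocytes and endothelium, cells known to express *Rbp7*, were read beside it. *Adipoq*, *Plin1*, *Cidec*, *Lep* and *Retn* were at 0 in every CTR papilloma, and the 6 adipocyte markers other than *Fabp4* summed to at most 0.0484 FPKM there. In TG they summed to 0.0443, 0.125 and 34.7 FPKM in TG 1 to 3. The 5 endothelial markers summed to 6.70 to 12.4 FPKM in CTR and to 17.4, 9.82 and 25.8 FPKM in TG 1 to 3. *Fabp4*, the most abundant marker on the adipocyte list, was at 1374 to 3228 FPKM in CTR and 1545 to 2269 FPKM in TG, with a log2 difference of -0.31, the same sign as that of *Rbp7*. The part of other cell types in the level of *Rbp7* was not tested. *Rbp2*, named here as a paralog of *Rbp7*, was at 158 to 211 FPKM in CTR and 181 to 296 FPKM in TG. The ratio of *Rbp2* to *Rbp7* was 3.07 to 9.74 in CTR and 22.3 to 65.2 in TG papillomas.

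*Crabp1* (chr9:54764808-54773109) and *Crabp2* (chr3:87948693-87953372) encode the cellular retinoic acid binding proteins, of which CRABP2 is known to deliver retinoic acid to receptors. *Crabp1* was at 4.05, 9.34, 15.3 and 14.6 FPKM in CTR 1 to 4 and at 18.1, 8.01 and 27.8 FPKM in TG 1 to 3. TG 1 and TG 3 were above all CTR papillomas, while TG 2 was below 3 of the 4. Its log2 difference was 0.70 (standard error 0.51), and 0.31 without TG 3, the papilloma with the highest fibroblast markers. It was 1.17 without TG 2. *Crabp2* was at 286, 305, 275 and 298 FPKM in CTR 1 to 4 and at 263, 196 and 319 FPKM in TG 1 to 3. The CTR papillomas lay close together, and the TG papillomas lay on both sides of them. Its log2 difference was -0.19 (standard error 0.20), and -0.36 without TG 3. Without TG 2, the lowest papilloma, it was -0.01. *Crabp2* exceeded *Crabp1* in every papilloma, by 18.0 to 70.6 times in CTR and by 11.5 to 24.5 times in TG.

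*Aldh1a3* (chr7:66390893-66427477) encodes an enzyme that oxidizes retinal to retinoic acid, and its transcript was, on average, more abundant in TG papillomas. Its level was 13.6, 4.82, 16.6 and 32.9 FPKM in CTR 1 to 4. In TG 1 to 3 it was 23.7, 91.0 and 147 FPKM. TG 2 and TG 3 were above all CTR papillomas, and TG 1 was below CTR 4, so that TG was higher in 11 of the 12 pairings across groups. The means were 17.0 ± 11.7 FPKM in CTR (SD, n = 4) and 87.3 ± 61.8 FPKM in TG (SD, n = 3), a ratio of TG to CTR of 5.14. The log2 difference was 2.26 (standard error 0.70), and 1.71 without TG 3. It was 3.01 without TG 1. TG 2, the second highest papilloma, had fibroblast (86.3 FPKM) and leukocyte (22.4 FPKM) marker sums within or below the CTR range, and muscle markers at 4.53 FPKM against at most 2.96 FPKM in CTR. The keratinocyte markers of TG 2 summed to 15993.5 FPKM, above the CTR range of 8770 to 12142 FPKM. The part of cell composition in the *Aldh1a3* values of TG 2 and TG 3 was not tested.

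*Dhrs9* (chr2:69380462-69403086) encodes a dehydrogenase that can oxidize retinol, the step before *Aldh1a3*. It was at 10.8, 4.50, 7.11 and 8.73 FPKM in CTR 1 to 4 and at 4.93, 9.73 and 13.7 FPKM in TG 1 to 3. The groups overlapped widely. The log2 difference was 0.22 (standard error 0.37), and it changed sign to -0.09 without TG 3 and was 0.60 without TG 1.

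*Cyp26b1* (chr6:84571414-84593908), whose product hydroxylates retinoic acid for removal, had lower levels but the same order of papillomas as *Aldh1a3*. It was at 2.13, 1.70, 2.53 and 3.24 FPKM in CTR 1 to 4 and at 2.61, 3.52 and 4.76 FPKM in TG 1 to 3. TG 2 and TG 3 were again above all CTR papillomas, and TG 1 below CTR 4. The log2 difference was 0.50 (standard error 0.25), and 0.31 without TG 3. The ratio of *Aldh1a3* to *Cyp26b1* ranged from 2.83 to 10.2 in CTR and was 9.11, 25.9 and 30.9 in TG 1 to 3.

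*Rarg* (chr15:102234940-102257483) encodes the retinoic acid receptor known as the main one of epidermis, and *Rxra* (chr2:27677201-27763319) its partner receptor. *Rarg* was at 32.3, 24.3, 37.6 and 26.7 FPKM in CTR 1 to 4 and at 33.5, 27.8 and 28.0 FPKM in TG 1 to 3, with a log2 difference of -0.01 (standard error 0.19). All TG values lay inside the CTR range. *Rxra* was at 21.2, 16.1, 20.2 and 19.0 FPKM in CTR 1 to 4 and at 25.0, 21.1 and 21.1 FPKM in TG 1 to 3. Its log2 difference was 0.22 (standard error 0.16), and the lowest TG values were just under the highest CTR value. The ratio of *Rarg* to *Rxra* was 1.53, 1.51, 1.86 and 1.41 in CTR 1 to 4 and 1.34, 1.32 and 1.33 in TG 1 to 3, so the ratio was lower in every TG papilloma, by a small margin. The counting intervals of CTR 4 were 25.1 to 28.3 FPKM for *Rarg* and 18.0 to 19.9 FPKM for *Rxra*. The margin between CTR 4 and the TG papillomas was therefore not resolved.

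**Figure D2:**
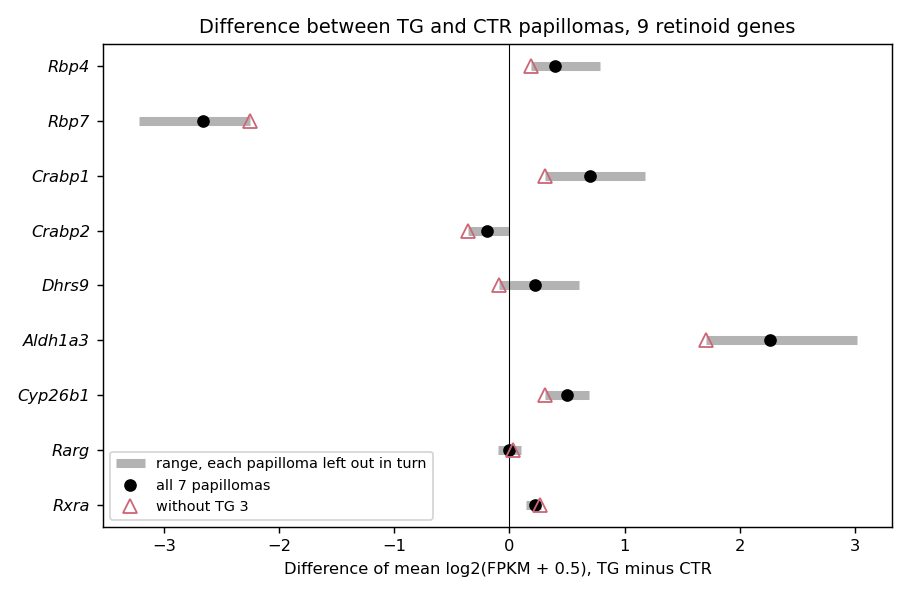
Difference of mean log2(FPKM + 0.5), TG minus CTR (horizontal axis), for the 9 retinoid genes. Black points use all 7 papillomas, open triangles leave out TG 3, and gray bars span the values with each papilloma left out in turn. *Rbp7* lies at -2.66 and *Aldh1a3* at 2.26, and the bars of *Dhrs9* and *Rarg* cross 0.

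Among the 9 genes, 6 had a positive and 3 a negative log2 difference, with a median of 0.22, where the median over all 12299 genes fitted was 0.06. All 9 passed the minimum mean of 0.5 FPKM over the 7 papillomas. With limma over the 12299 genes, no gene reached an adjusted p under 0.05 in either direction (0% of genes higher and 0% lower in TG), *Nanog* included. At an unadjusted p under 0.05, 4.86% of all genes were higher and 1.96% lower. The groups did not overlap for 0 of the 9 in the higher direction and 1 in the lower, against 4.93% and 2.23% of all genes. These counts over the 9 used the comparison that chose them, and nothing is read from them. TG 3 held the highest value for 6 of the 9 genes and for 5050 of all genes fitted.

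The papillomas were also ordered by each gene, within groups as well as between them. *Aldh1a3* and *Cyp26b1* put all 21 pairs of papillomas in the same order, the 9 pairs within a group included. This full agreement in order was found with *Aldh1a3* for 8 of the other 12298 genes (0.0651%). Of all pairs among the 9 genes, *Aldh1a3* and *Cyp26b1* were the most alike in order. Counting intervals of some neighbors in the *Cyp26b1* order overlapped. They were 2.24 to 2.83 FPKM in CTR 3 and 2.30 to 2.91 FPKM in TG 1, so the exact order was not resolved. *Rbp7* ordered 19 of the 21 pairs opposite to *Aldh1a3*, and also 19 opposite to *Cyp26b1*. Within groups, 5 of 6 CTR pairs and 3 of 3 TG pairs were opposite. Of all genes, 2.53% were opposite to *Rbp7* in at least 19 pairs and 0.512% were opposite to *Aldh1a3*. The 9 genes were chosen with their group differences known, and this choice bears on the 12 of the 21 pairs that lie between groups. The shares over all genes therefore do not measure how unusual these orders are, and none is given for the pairs within groups. They describe 7 papillomas that each give a value to both genes from the same library, and carry no test. The ratio of *Aldh1a3* to *Rbp7* was 0.436, 0.0701, 0.328 and 1.63 in CTR 1 to 4 and 1.85, 20.0 and 49.1 in TG 1 to 3.

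**Figure D3:**
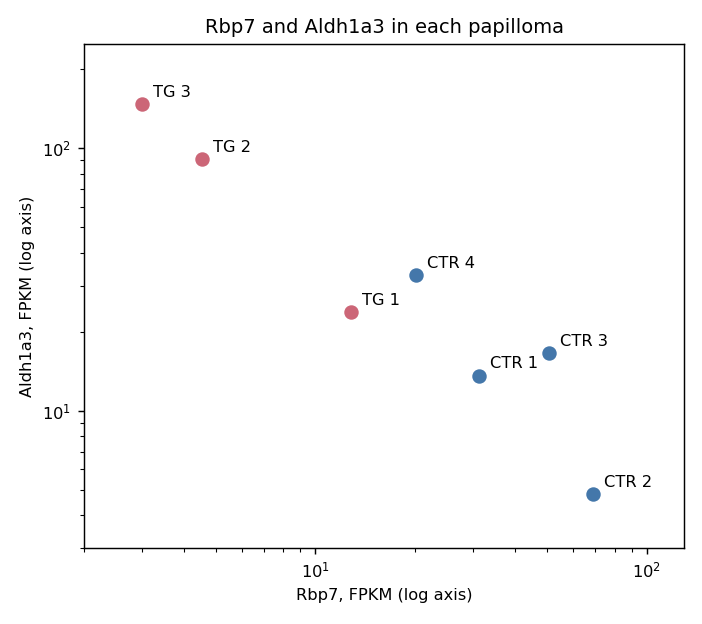
FPKM of *Rbp7* (horizontal, log axis) and *Aldh1a3* (vertical, log axis) in each of the 4 CTR (blue) and 3 TG (red) papillomas. TG 2 and TG 3 lie at the upper left, TG 1 (12.8 and 23.7 FPKM) lies beside CTR 4 (20.2 and 32.9 FPKM), and CTR 2 lies at the lower right.

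The genes with the most similar profile were sought for *Aldh1a3*, *Rbp7* and *Crabp1*, which varied most among the 9 (SD of log2 values 1.63, 1.63 and 0.86 over the 7 papillomas). Likeness is the root mean square difference of centered log2 values, and a smaller value means a closer profile. For *Aldh1a3* they were *Il1a*, an epithelial cytokine gene, at 0.59, and *Myadm* at 0.64. *Il1a* was between 3.12 and 8.88 FPKM in CTR and at 9.53, 16.5 and 44.9 FPKM in TG 1 to 3. For *Rbp7* they were *Ces1f*, a carboxylesterase gene, at 0.73, and *Mt4*, a metallothionein gene of stratified epithelia, at 0.78. *Ces1f* was between 0.896 and 3.30 FPKM in CTR and at 0.171, 0.0329 and 0.314 FPKM in TG 1 to 3, so its groups did not overlap. It was picked for likeness to *Rbp7* over these same papillomas, so this separation adds nothing to that of *Rbp7*. Its TG values were all below 0.5 FPKM, and TG 3 was the highest of them, where for *Rbp7* TG 3 was the lowest. For *Crabp1* they were the collagen genes *Col16a1* at 0.25 and *Col18a1* at 0.28. *Col18a1* was between 12.2 and 41.7 FPKM in CTR and at 40.2, 24.2 and 73.0 FPKM in TG 1 to 3. TG 3 was highest, as for *Crabp1*, but TG 1 was just below CTR 4 and so inside the CTR range.

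A further 46 genes of retinoid handling were listed by role and compared by limma over all genes. Of these, 31 passed the minimum and 15 did not, none of the 15 exceeding 0.890 FPKM in any papilloma. None of the 31 passed the adjusted threshold. By unadjusted p under 0.05, 2 were higher and 1 lower in TG, beside 4.86% and 1.96% of all genes. Without TG 3, 9 of the other retinoid genes had an unadjusted limma p under 0.05. Over all genes, 627 were then higher and 522 lower, against 598 and 241 with all 7 papillomas. The log2 difference was positive for 24 and negative for 7 (median 0.18), while over all genes fitted it was positive for 7383 and negative for 4916 (median 0.06). For 3 genes (*Dgat1*, *Sdr16c6* and *Rara*) the lowest TG value was above the highest CTR value, and for 0 genes the reverse held, beside 4.93% and 2.23% of all genes. *Rara* is named for this separation, after its values were seen.

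Of the genes for uptake, storage and carriers, 7 of 14 were measured above the minimum, with a median log2 difference of 0.42. *Dgat1*, which encodes an acyltransferase that makes triglycerides and retinyl esters, was at 5.83 to 8.82 FPKM in CTR and at 13.3, 15.9 and 13.5 FPKM in TG 1 to 3. Its log2 difference of 0.84 (standard error 0.18) had an adjusted p of 0.538 from limma, and an exact 2-sided permutation p of 0.0286, the smallest that 35 splits of 7 papillomas allow. *Dgat1* is named because its limma p was the smallest of the listed genes. *Sdr16c6*, *Rara* and *Rarres1*, described below, had the same permutation p. In all of these genes the groups did not overlap, which by itself holds the permutation p at or next to its minimum. *Rara* was chosen for that separation and the others for a small limma p. Their permutation p-values therefore add no support. Without TG 3 the log2 difference of *Dgat1* was 0.87. *Fabp5*, for a fatty acid binding protein that can also carry retinoic acid, was the most abundant gene of the pathway, at 4317 to 6158 FPKM in CTR and 3551 to 6551 FPKM in TG. It did not separate the groups (log2 difference -0.06, standard error 0.32).

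Of the genes that interconvert retinol and retinal, 16 of 18 were above the minimum, with a median log2 difference of 0.09. *Sdr16c6*, a short-chain dehydrogenase gene, was at 14.1 to 20.2 FPKM in CTR and at 21.7, 39.5 and 24.8 FPKM in TG 1 to 3 (log2 difference 0.68, adjusted p = 0.687 from limma). Its paralog *Sdr16c5* was the most abundant gene of this list and showed no such separation, at 52.6 to 57.0 FPKM in CTR and 36.2 to 59.0 FPKM in TG. *Adh7*, an alcohol dehydrogenase gene of upper digestive and other epithelia, was at 4.11 to 22.6 FPKM in CTR and at 2.41, 6.67 and 2.25 FPKM in TG 1 to 3. It was the gene of the pathway with the most negative log2 difference after *Rbp7* (-1.50, standard error 0.58), and the groups overlapped through TG 2 (adjusted p = 0.702 from limma). *Rdh1*, a retinol dehydrogenase gene with close copies such as *Rdh9* and *Rdh16* among which short reads can be split, was at 0.544 to 1.87 FPKM in CTR and at 2.91, 4.07 and 1.10 FPKM in TG 1 to 3 (log2 difference 0.88, adjusted p = 0.741 from limma). It was high in TG 1 and TG 2 and within the CTR range in TG 3.

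Of the remaining genes for synthesis and breakdown of retinoic acid, 2 of 6 were above the minimum. *Cyp2s1*, for a cytochrome P450 of epithelia, was at 5.58 to 10.1 FPKM in CTR and at 14.8, 15.8 and 2.76 FPKM in TG 1 to 3. TG 1 and TG 2 were above and TG 3 below all CTR papillomas, and the log2 difference of 0.24 became 0.99 without TG 3. *Aldh1a3* was higher than *Aldh1a1*, the other retinal dehydrogenase gene measured above the minimum (0.112 to 4.71 FPKM), in every papilloma.

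Of the receptors and their partners, 6 of 8 were above the minimum, with log2 differences from 0.03 to 0.62 and a median of 0.18. Positive values were also the more frequent ones over all genes fitted (7383 of 12299). *Rara*, for the second retinoic acid receptor measured above the minimum, was at 0.864 to 1.66 FPKM in CTR and at 1.77, 1.75 and 3.69 FPKM in TG 1 to 3. Its log2 difference of 0.62 (adjusted p = 0.760 from limma) was 0.32 without TG 3. *Ppard*, for a receptor known to bind fatty acids, was the most abundant of the list at 30.7 to 53.0 FPKM in CTR and 45.3 to 58.5 FPKM in TG.

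A separate list held 11 genes known to respond to retinoic acid, of which 9 were above the minimum. None passed the adjusted threshold. At an unadjusted limma p under 0.05, 1 was higher and 0 were lower, beside 4.86% and 1.96% of all genes. The median log2 difference was 0.42, against 0.06 over all genes fitted. It was positive for 7 genes and negative for 2, *Dhrs3* (-0.01) and *Stra6* (-0.09). *Rarres1*, named for its induction by retinoids, was at 1.69 to 2.31 FPKM in CTR and at 4.25, 6.12 and 2.50 FPKM in TG 1 to 3. The lowest TG value was above the highest CTR value, and the log2 difference was 0.88 with a standard error of 0.27 (limma, adjusted p = 0.631). *Hbegf*, for an epidermal growth factor ligand, was the most abundant of the list, at 23.6 to 83.6 FPKM in CTR and 60.5 to 78.2 FPKM in TG, and the groups overlapped.

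**Figure D4:**
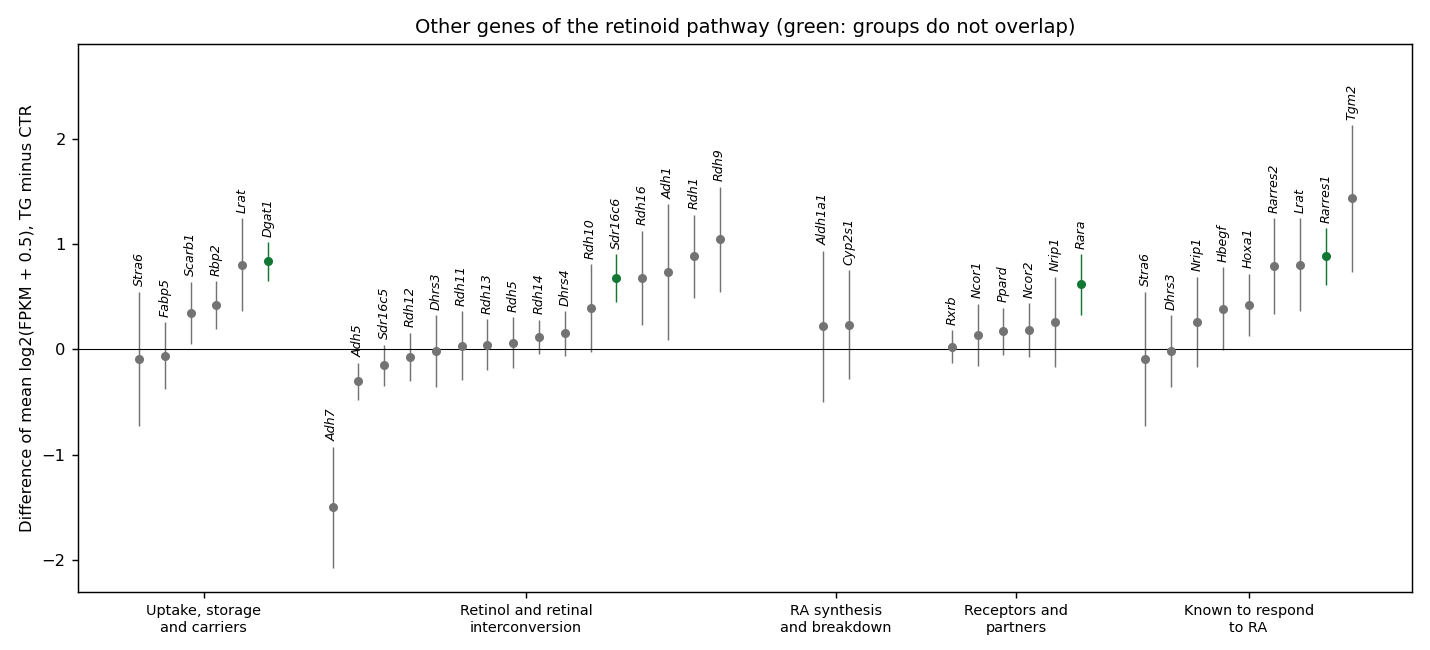
Difference of mean log2(FPKM + 0.5), TG minus CTR (vertical axis), for other genes of the retinoid pathway above the minimum, grouped by list. RA is retinoic acid, bars are the standard error from limma, green marks genes whose TG and CTR papillomas do not overlap, and genes on both a role list and the responsive list are drawn in both. Most points lie within 1 unit of 0, with *Adh7* lowest at -1.50 and *Tgm2* highest at 1.43.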

How the data were processed

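RNA was sequenced from 7 papillomas, 4 CTR and 3 TG, grouped by the genotype labels. The methods and labels describe stranded libraries of polyA+ RNA. Per the submitters' processing notes, TopHat2 2.0.4, Bowtie 0.12.7, SAMtools 0.1.16 and Cufflinks 1.3.0 were used on GRCm38. The authors deposited FPKM for each gene with a confidence interval and a status. Reads behind a value were inferred from the width of its interval, are approximate and describe counting error only.

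Entries of a symbol at more than 1 locus were summed (240 symbols) and symbols with a failed estimate (162) were left out. Genes whose mean over all 7 papillomas reached 0.5 FPKM were compared on log2(FPKM + 0.5) with limma 3.58.1 (R 4.3.3, trended variance, Benjamini-Hochberg adjustment, threshold 0.05), tested on simulated data. A fold on this scale understates the change of low genes. Single genes other than the 9 were also compared by exact 2-sided permutation over 35 splits. The 9 genes and all lists were chosen with earlier results of these data known. Of the other pathway genes, those named are the 6 with the smallest p over the role and responsive lists, and the most abundant of each list. 1 named gene is not reported here. Similar profiles are the 2 closest genes for each of the 3 most variable of the 9. *Rbp2*, *Rara*, *Aldh1a1*, *Rdh9*, *Rdh16*, *Rarb*, *Cyp26a1*, *Bco1*, *Dhrs3* and *Stra6* were added. Alternatives were pseudocounts of 0.1 and 1, no minimum and a minimum of 2 FPKM, upper-quartile and quantile scaling, no trend, sample quality weights, the highest entry of a symbol, a replicate block and leaving out each papilloma. The papillomas of lower depth only (without CTR 3 and TG 1) were chosen after seeing the data. Promoter sequences are from RefSeq (GRCm38.p6), and figures were drawn with matplotlib 3.10.9.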

Additional observations from a re-analysis of the deposited data

Results flagged for a closer look

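A papilloma far from the others of its group was looked for among the 4 CTR papillomas, and chance alone would flag about 5% of groups. *Ppard* was lowest in CTR 2, at 30.7 FPKM, where the nearest other CTR papilloma had 50.9 FPKM, a gap of 0.905 of the range of the group. *Nanog* was highest in CTR 3, at 12.7 FPKM, where the nearest other CTR papilloma had 3.34 FPKM, a gap of 0.936 of the range. Of 21 genes looked at, these were the ones found. CTR 3 was also among the deeper libraries.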

How the results depend on the processing

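Under 18 alternatives, 152 of 161 log2 differences of the 9 genes kept the sign reported, and *Rbp7*, *Crabp2*, *Aldh1a3*, *Cyp26b1* and *Rxra* kept it under every one. The 9 other values belonged to *Rarg* (5), *Dhrs9* (2) and, with sample quality weights, *Rbp4* (-0.11) and *Crabp1* (-0.18). *Rbp4* gave no value with a minimum of 2 FPKM. With sample quality weights, limma called 49 genes higher and 36 lower in TG, and 1 of the 31 other retinoid genes, *Dgat1* (adjusted p = 0.0409). *Rarres1* of the responsive list was also called then (adjusted p = 0.0379). Leaving out 1 papilloma gave 0 to 9 genes called higher and 0 to 8 lower, the highest numbers without TG 3, and the lower-depth papillomas alone gave 1 higher. *Nanog* was called with quality weights (adjusted p = 0.0320), without CTR 3 (0.00364) and in the lower-depth papillomas (0.00364). The number of the 9 genes whose groups did not overlap was 1 to 3 when 1 papilloma was left out. *Aldh1a3* and *Cyp26b1* joined *Rbp7* without CTR 4, without TG 1 and in the lower-depth papillomas (3), *Rxra* without CTR 1, *Rbp4* and *Crabp1* without TG 2, and *Crabp2* (lower) without TG 3. Groups of fewer papillomas separate more easily. The share of all genes that did so in these smaller sets is not given, and nothing is read from these numbers.

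The median log2 difference of all genes was 0.06, 0.00 with upper-quartile scaling, -0.03 with quantile normalization, 0.13 without TG 1 and 0.13 in the lower-depth papillomas. Same-numbered CTR and TG papillomas did not deviate together (r = -0.19, 0.04 and -0.15 across genes), so the numbers were not taken as pairs. With the replicate block, under which CTR 4 has no partner, limma called 0 genes in either direction (505 higher and 170 lower at an unadjusted p under 0.05), and 5 other retinoid genes had an unadjusted p under 0.05, against 3 without it. The number of other retinoid genes at that threshold was 9 without TG 3 and 9 with sample quality weights. With the weights, 1161 of all genes were higher and 1248 lower at an unadjusted p under 0.05. The 3 and 4 papillomas, and the low read numbers of *Rbp4* and of *Rbp7* in TG 3, limit the precision of each difference.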

Other observations

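Several genes of the pathway that are not described in the paragraphs above, chosen after their values were seen, were high in only part of the TG papillomas. *Tgm2*, which encodes a transglutaminase, was at 0.298 to 0.608 FPKM in CTR 1 to 4 and at 0.607, 0.807 and 10.2 FPKM in TG 1 to 3. Its log2 difference of 1.43 (standard error 0.70) rests mainly on TG 3. *Lrat*, whose product esterifies retinol for storage, was at 0.289 to 0.848 FPKM in CTR and at 1.03, 2.98 and 0.390 FPKM in TG 1 to 3. *Rdh9*, a retinol dehydrogenase gene, was at 0.484 to 2.31 FPKM in CTR and at 4.34, 5.43 and 1.04 FPKM in TG 1 to 3. For *Lrat* and *Rdh9*, TG 1 and TG 2 were above all CTR papillomas and TG 3 was inside their range, the same placement as for *Rdh1*. Short reads can be split between *Rdh9* and its close copy *Rdh1*, so the values of these genes may not be independent. None of *Tgm2*, *Lrat* and *Rdh9* passed the adjusted threshold of limma (adjusted p = 0.784, 0.813 and 0.779).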
